A study of Mus musculus with 27 samples.

Results

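The genes described here are 8 transcription factor genes that specify the projection neurons of the cerebral cortex, followed across mouse fetal brain development. The deep-layer regulators were Tbr1, Bcl11b, Fezf2 and Sox5, and the upper-layer regulators were Cux1, Cux2, Pou3f2 and Rorb. They were chosen by gene symbol, and all 8 were found among the 55416 genes of the read-count table. The study profiled polyadenylated RNA of the fetal brain in 27 libraries, 3 for each of 3 strains at each of d12, d15 and d17 of gestation (d, gestational day), with the vaginal plug counted as day 1. AKR/J and C57BL/6J are inbred, and B6.Cg-Cav1tm1Mls/J (Cav1-null) is a congenic strain with a null allele of Cav1, the gene of the membrane protein caveolin-1. Timed pregnancies were set up within each strain from mice of about 8 weeks of age, no treatment was given, and all libraries are labelled female. The labels do not say whether the 3 libraries of a group came from separate litters, so the p-values measure only the spread between these libraries. The study contrasted C57BL/6J, which it describes as long-lived, with the other strains, which it describes as short-lived, and called d12 to d15 the early phase and d15 to d17 the late phase.

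The mammalian cortex forms from the inside out. Progenitors of the dorsal telencephalon (the pallium) first give rise to the neurons of the deep layers, which project to the thalamus, brainstem and spinal cord, and later to the neurons of the upper layers, which connect cortical areas with each other. Fezf2 and Bcl11b direct neurons to the subcerebral fate of layer 5, Tbr1 to the corticothalamic fate of layer 6, and Sox5 controls the sequence in which deep-layer and subplate neurons differentiate. Cux1 and Cux2 act in dendrite and synapse formation of upper-layer neurons, Pou3f2 (Brn2) in the production and migration of upper-layer neurons, and Rorb in layer 4. None of these genes is restricted to the cortex. Bcl11b is a gene of striatal neurons, Rorb is expressed in the thalamus, Pou3f2 in progenitors and many other neurons, and Cux1 in most tissues. A whole fetal brain therefore adds these sources together, and in such bulk RNA fewer cells of a type and less RNA per cell cannot be told apart.

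On the GRCm39 build the members are protein-coding genes at chr2:61633274-61644458 (Tbr1, plus strand), chr12:107876656-107970417 (Bcl11b, minus), chr14:10121574-10127680 (Fezf2, plus), chr6:143774151-144727703 (Sox5, minus), chr5:136276755-136596408 (Cux1, minus), chr5:121994429-122188521 (Cux2, minus), chr4:22482780-22488366 (Pou3f2, minus) and chr19:18907969-19088585 (Rorb, minus). The lncRNA Gm30731 runs on the opposite strand across the start of Pou3f2 and had at most 11.8 CPM (the read count relative to the library size, which was scaled by the trimmed mean of M-values, TMM). Whether the counting used strand is not given in the sources used here, so reads of Pou3f2 and of Gm30731 in their overlap may not have been told apart. Other genes that overlap a member had at most 2.69 CPM where they were in the table.

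The deposited splice junctions show which ends of exons the members used, and 3 places are printed because a measurable share of reads joined each of them in 2 ways. Sequences run 5′ to 3′ on the strand of the gene on GRCm39, with exon bases in capitals and intron bases in lower case. The first pair are the alternative 5′ splice sites of Tbr1 at chr2:61636461-61636490 and chr2:61636708-61636737, 247 bases apart, which join the same downstream exon. The Cux1 site at chr5:136355775-136355804 and the Sox5 site at chr6:143906632-143906661 are 3′ splice sites at which the exon can begin 6 bases (gagcag) or 3 bases (cag) earlier than the capitals show.
Tbr1 upstream donor: CCAATGTGCAAGgcaagtccttccaattaa
Tbr1 downstream donor: CTCTCTGTGAAGgtgtgtgtgtgtgtgtgt
Cux1 acceptor: tgtccttcccaggagcagGCCATAGAGGTG
Sox5 acceptor: ctctctcacgttcagcagGTTCAAGGTCAG

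Every member had enough reads to be tested in each comparison, with 26363697 to 39759702 reads on genes per library and a median of 29700746. The d15 C57BL/6J libraries were the deepest of all, at 37191332 to 39759702 reads, against 26846313 to 30160663 in the other d15 libraries. Their TMM factors were 0.897 to 0.931, against 1.04 to 1.11 in the other d15 libraries. The part of depth in the d15 values was not tested. The targeted gene Cav1 reached at most 0.509 CPM where it carries the null allele, against 9.24 to 34.2 CPM for AKR/J and 10.4 to 39.9 CPM for C57BL/6J. Replicate 3 of d12 stood apart in each strain. Neurod6, a gene of pallial glutamatergic neurons, had 0.508 CPM in AKR/J replicate 3 against 45.6 and 22.2 CPM in the other d12 libraries, 19.2 CPM in C57BL/6J replicate 3 against 131 and 124 CPM, and 60.0 CPM in Cav1-null replicate 3 against 225 and 224 CPM. En2, a gene of the midbrain and hindbrain boundary region, was at 74.8 CPM in that AKR/J library, the highest of the 3. Listed genes of pallial glutamatergic neurons summed to 292, 275 and 240.5 CPM in d12 AKR/J replicates 1, 2 and 3. Their sums were 592, 655 and 307 CPM in C57BL/6J, and 673, 651 and 341 CPM in Cav1-null. Other deep-layer and subplate genes summed to 338, 291.5 and 379 CPM in AKR/J, 474.5, 660 and 448 CPM in C57BL/6J, and 400, 405 and 414 CPM in Cav1-null. That sum was thus highest in replicate 3 in AKR/J and Cav1-null. Erythroid genes took 6.90%, 3.56% and 13.6% of the reads in d12 AKR/J replicates 1, 2 and 3, and the placental gene Prl8a2 reached 586.5 CPM in d12 AKR/J replicate 1. The part of tissue composition in the results of d12 was not tested, and each early-phase result whose call changed without the replicate 3 library is given both ways.

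**Figure D1:**
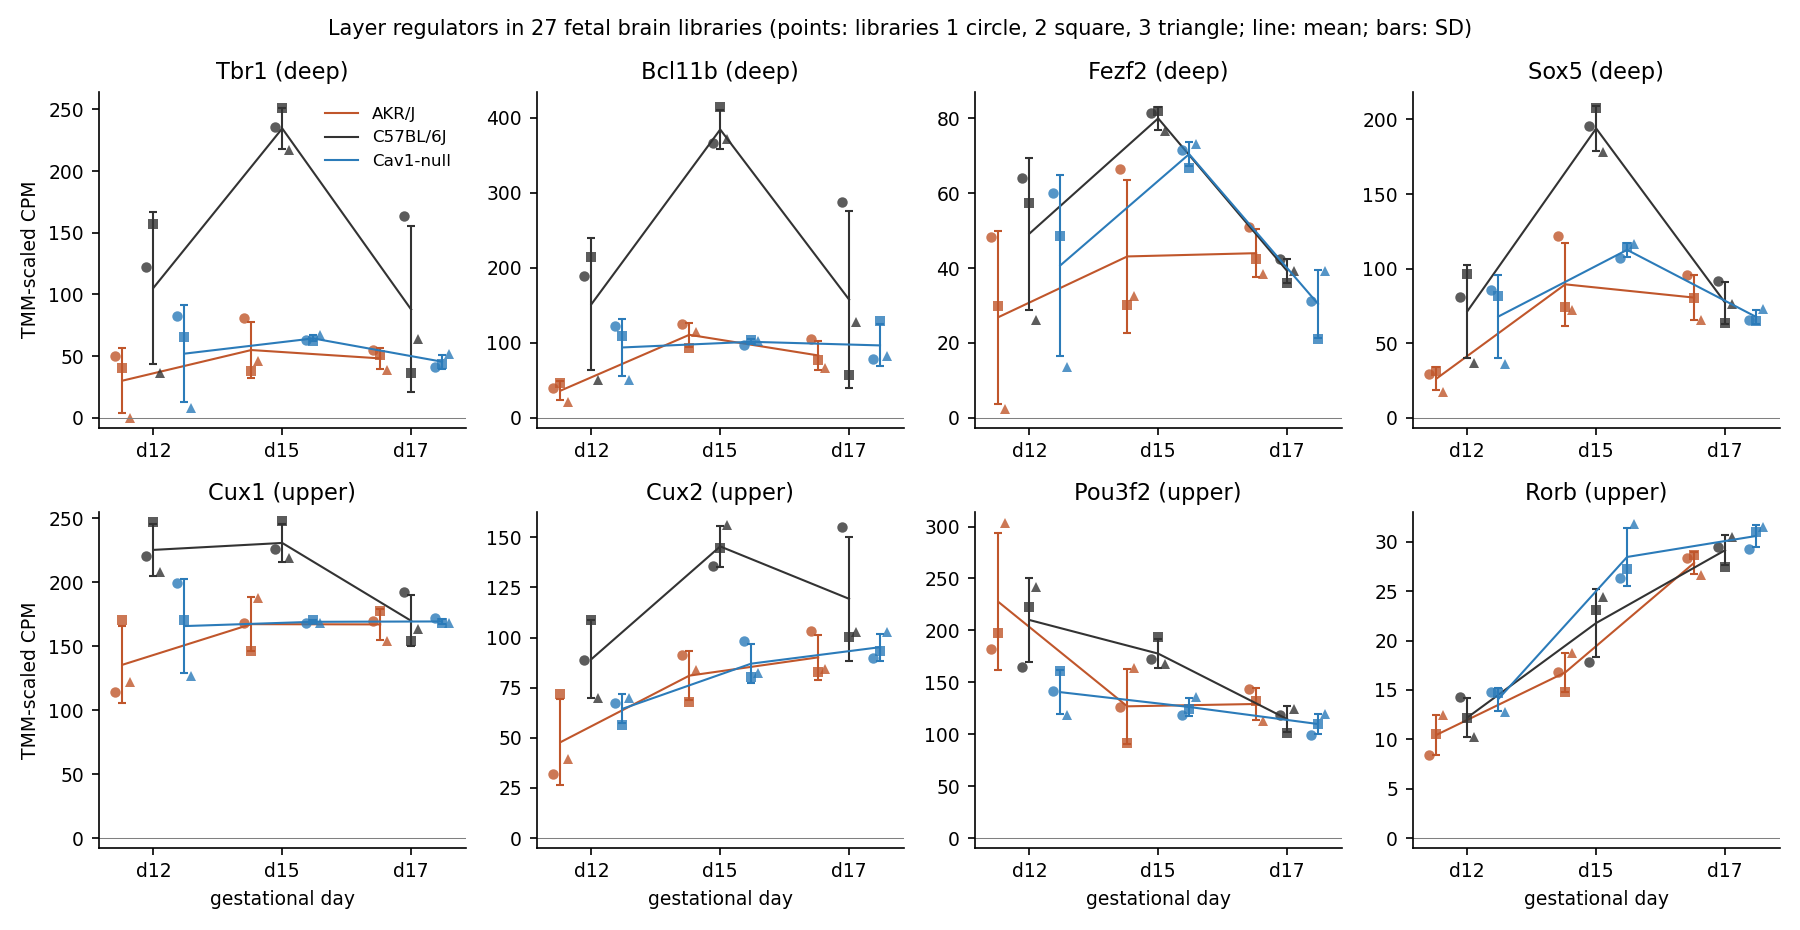
The panels plot the TMM-scaled CPM of each member against gestational day for AKR/J, C57BL/6J and Cav1-null, with a point per library (replicate 1 circle, 2 square, 3 triangle), the group mean as a line and the SD as bars. Tbr1 and Bcl11b peak in the 3 C57BL/6J libraries of d15 (217 to 251 and 367 to 415 CPM), and Rorb is higher on d17 than on d12 in all 3 strains.

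Per kilobase of exon, the only scale on which different genes were ranked, Pou3f2 had the highest level in 8 of the 9 groups, with means of 19.7 to 40.7 CPM per kb. The exon length merges all annotated transcripts of a gene, with 5587 bases for Pou3f2, 15527 for Sox5 and 24248 for Cux1. The order of the genes therefore also depends on the annotation. In C57BL/6J on d15 the order was Tbr1 (42.8 ± 3.09 CPM per kb, SD, n = 3), Bcl11b (40.8 ± 2.80) and Pou3f2 (31.8 ± 2.45). Tbr1 and Bcl11b did not differ beyond their spread there, and both were above Pou3f2 in mean by more than these SDs. Rorb was lowest in all 9 groups, at 0.941 to 2.76 CPM per kb. In d12 AKR/J Tbr1 (5.48 ± 4.83 CPM per kb) and Fezf2 (7.27 ± 6.26) could not be ordered against the other deep-layer members, while Bcl11b (3.83 ± 1.38) was above Sox5 (1.69 ± 0.49) in every library.

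The development of each strain was tested gene by gene with edgeR's quasi-likelihood test, and a member was called when its Benjamini-Hochberg adjusted p over all tested genes was under 0.05. In the early phase 3 of 8 members were called in AKR/J, where 28.9% of 19935 genes were called. In C57BL/6J 3 of 8 were called (14.9% of 19154 genes), and in Cav1-null 2 of 8 (23.4% of 19934 genes). In the late phase 1 of 8 was called in AKR/J (22.1% of 19989 genes), 3 of 8 in C57BL/6J (13% of 19888 genes) and 3 of 8 in Cav1-null (27.3% of 20245 genes). Between d12 and d17, 5 of 8 were called in AKR/J (45.8% of 20030 genes), 2 of 8 in C57BL/6J (26.2% of 19762 genes) and 3 of 8 in Cav1-null (44% of 20189 genes). The libraries of the days did not overlap for 47%, 45.1% and 41.6% of tested genes early in AKR/J, C57BL/6J and Cav1-null. They did not overlap for 41.6%, 41.3% and 41.7% late, and for 58.2%, 45.8% and 56.1% from d12 to d17. Some values below are also given without a single library. Where that library lay nearest to the other group, leaving it out widens the difference by construction, and a call gained so is no further support.

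The deep-layer members had their highest mean level on d15 in each strain, except for Fezf2 in AKR/J, whose means of d15 and d17 were 43.1 and 44.0 CPM. Their median log2 fold change in the early phase was 1.19 for AKR/J, 1.21 for C57BL/6J and 0.53 for Cav1-null, against medians over all tested genes of 0.02, -0.04 and -0.01. In the late phase the median was -0.15, -1.24 and -0.61, against -0.01, 0.03 and 0 over all genes. The early medians rest in part on replicate 3 of d12. Without that library they were 0.78 for AKR/J, 0.81 for C57BL/6J and 0.10 for Cav1-null, where Tbr1 and Bcl11b then had negative values (-0.20 and -0.18). The d12 mean of both was thus above that of d15 in Cav1-null when the library was left out.

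The upper-layer members had early medians of 0.45, 0.32 and 0.23 and late medians of 0.11, -0.30 and 0.06. These medians combine Pou3f2 and Rorb, whose changes from d12 to d17 had opposite directions. In size the change of Rorb was larger than that of any deep-layer member late in AKR/J (0.75) and early in Cav1-null (1.02). With the trend of exon GC content and length removed from each library, an alternative added after seeing the data, the upper-layer medians were -0.13, 0.04 and 0.17 early and 0.14, 0.07 and -0.11 late, so that 3 of the 6 changed sign. The deep-layer medians were then 0.96, 1.1 and 0.48 early and -0.16, -1.1 and -0.7 late.

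**Figure D2:**
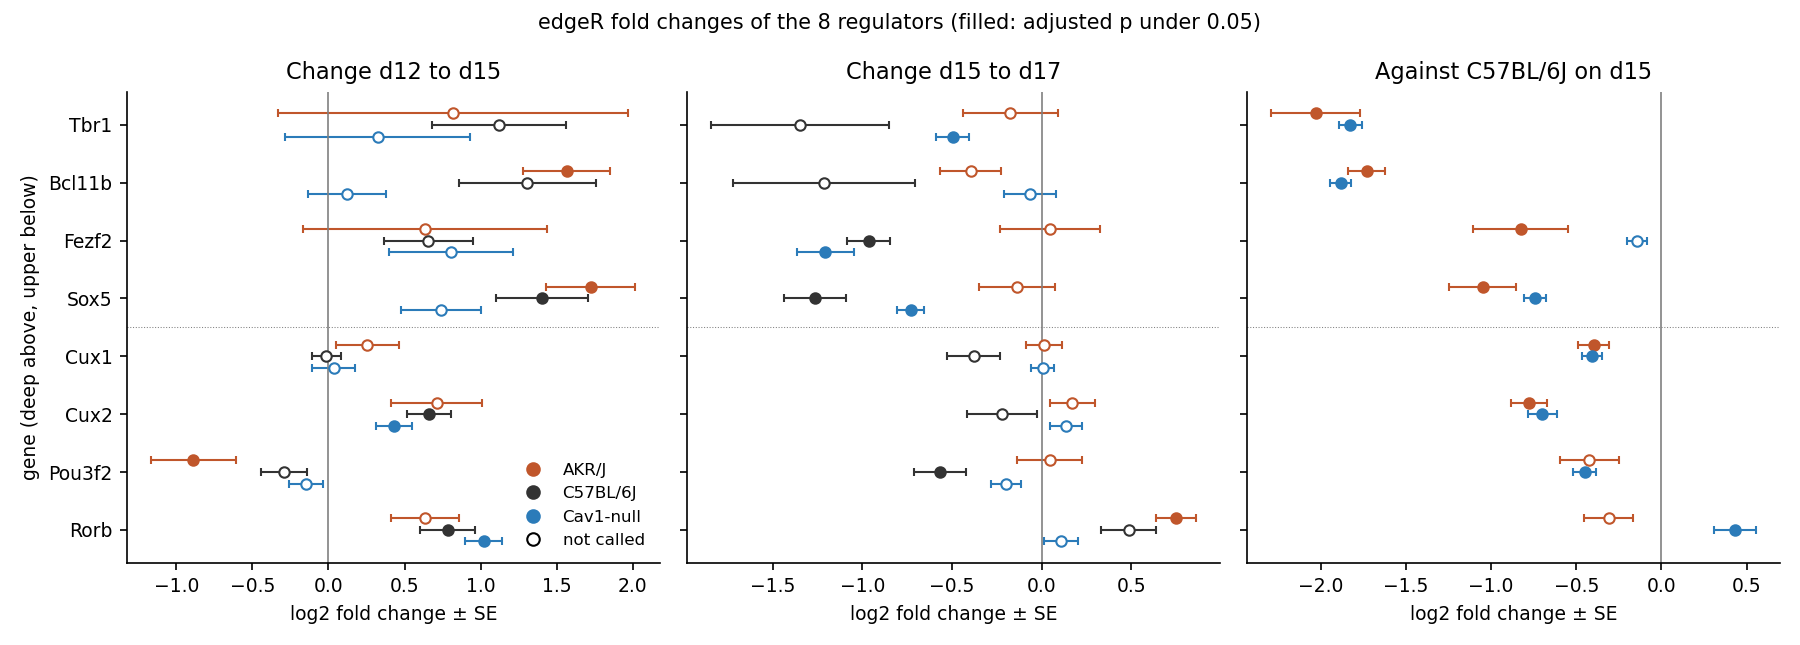
The panels plot the edgeR log2 fold change of each member with its SE for the early phase, the late phase and the strains against C57BL/6J on d15, and filled points have an adjusted p under 0.05. In the late phase Fezf2 lies at -0.96 in C57BL/6J and -1.21 in Cav1-null but at 0.05 in AKR/J, and on d15 Tbr1 and Bcl11b lie between -1.73 and -2.03 in both strains against C57BL/6J.

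Tbr1 encodes a T-box factor that specifies corticothalamic neurons and represses the subcerebral program. In AKR/J replicates 1 to 3 it had 49.9, 40.3 and 0 CPM on d12, 81.0, 37.6 and 46.0 CPM on d15, and 54.8, 51.1 and 38.5 CPM on d17. In C57BL/6J it had 122.5, 157 and 36.6 CPM on d12, 235.5, 251 and 217 CPM on d15, and 164, 35.9 and 63.7 CPM on d17. In Cav1-null it had 82.8, 65.4 and 7.70 CPM on d12, 63.4, 62.5 and 67.1 CPM on d15, and 40.9, 43.5 and 51.8 CPM on d17. The lowest library of d12 was replicate 3 in each strain, and the count of 0 in the AKR/J library allows up to 0.152 CPM (3 counts, counting error only). The early change did not pass the test in any strain (log2 fold changes with SE of 0.82 ± 1.15 for AKR/J, 1.12 ± 0.44 for C57BL/6J and 0.32 ± 0.61 for Cav1-null, edgeR adjusted p = 0.632, 0.114 and 0.743). Without replicate 3 of d12 Tbr1 rose in C57BL/6J (0.72 ± 0.11, edgeR adjusted p = 0.00903), while the values were 0.24 in AKR/J and -0.20 in Cav1-null. In the late phase Tbr1 fell by 0.50 ± 0.09 on the log2 scale in Cav1-null (edgeR adjusted p = 0.00136), where the groups did not overlap. In 1 model of all 27 libraries, with a single dispersion per gene, that value was -0.50 ± 0.83 and was not called (edgeR adjusted p = 0.833). The C57BL/6J groups of d15 and d17 did not overlap either, but the log2 fold change of -1.35 ± 0.50 did not pass the test (edgeR adjusted p = 0.107), and without d17 replicate 1 Tbr1 fell by 2.17 (edgeR adjusted p = 0.00239). DESeq2 called the C57BL/6J values of Tbr1 with all libraries, both early (adjusted p = 0.0263) and late (adjusted p = 0.0187). The late value was also called by edgeR's likelihood-ratio test (adjusted p = 0.0372) and without the filter on low counts (edgeR adjusted p = 0.0420). In AKR/J d15 and d17 overlapped. Without d12 replicate 3 of Cav1-null the change from d12 to d17 was -0.71 for Tbr1 (edgeR adjusted p = 0.000293), -0.83 for Fezf2 (edgeR adjusted p = 0.00157) and -0.31 for Sox5 (edgeR adjusted p = 0.0171), against -0.19, -0.42 and -0.01 with it.

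Bcl11b (Ctip2) encodes a zinc finger factor required for corticospinal axon outgrowth. In AKR/J it had 40.3, 46.4 and 21.4 CPM on d12, 125, 92.9 and 114 CPM on d15, and 105, 77.1 and 66.95 CPM on d17. In C57BL/6J it had 189.5, 214 and 50.5 CPM on d12, 367, 415 and 372 CPM on d15, and 287, 57.4 and 128 CPM on d17. In Cav1-null it had 122, 108.5 and 50.7 CPM on d12, 97.6, 104 and 102 CPM on d15, and 78.5, 129 and 82.1 CPM on d17. The C57BL/6J libraries of d15 were the 3 highest of all 27, and Cav1-null showed no group that lay apart from the others. Bcl11b rose in the early phase in AKR/J (1.57 ± 0.29, edgeR adjusted p = 0.00633, groups not overlapping). The rise from d12 to d17 in AKR/J was 1.20 ± 0.30 (edgeR adjusted p = 0.0109), with 1.01 and an adjusted p of 0.0506 without d17 replicate 1, and without that library the late change was -0.62 (edgeR adjusted p = 0.0194) against -0.40 ± 0.17 with it. In C57BL/6J the early log2 fold change of 1.31 ± 0.45 (edgeR adjusted p = 0.0860) passed without d12 replicate 3 (0.90, adjusted p = 0.00351). The late one of -1.21 ± 0.51 (edgeR adjusted p = 0.141) passed without d17 replicate 1 (-1.98, adjusted p = 0.00654). DESeq2 called both with all libraries (adjusted p = 0.00970 and 0.0395). With all libraries the early one was also called by edgeR's likelihood-ratio test (adjusted p = 0.0242), without the filter on low counts (edgeR adjusted p = 0.0484) and in the model of all 27 libraries (edgeR adjusted p = 0.0467). In Cav1-null the values were 0.12 ± 0.26 and -0.07 ± 0.14, and without d17 replicate 2 the late one was -0.33 (edgeR adjusted p = 0.00828).

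Fezf2 encodes the zinc finger selector of subcerebral projection neurons. The AKR/J libraries had 48.3, 29.97 and 2.34 CPM on d12, 66.5, 30.1 and 32.6 CPM on d15, and 51.0, 42.3 and 38.5 CPM on d17. The C57BL/6J libraries had 64.0, 57.5 and 26.04 CPM on d12, 81.5, 82.0 and 76.5 CPM on d15, and 42.5, 36.0 and 39.2 CPM on d17. The Cav1-null libraries had 59.9, 48.4 and 13.7 CPM on d12, 71.5, 66.7 and 73.0 CPM on d15, and 31.1, 20.9 and 39.2 CPM on d17. In C57BL/6J and Cav1-null every d17 library was below every d15 library, and in AKR/J the days overlapped. Fezf2 fell in the late phase by 0.96 ± 0.12 in C57BL/6J (edgeR adjusted p = 0.00642) and by 1.21 ± 0.16 in Cav1-null (edgeR adjusted p = 0.000105). The C57BL/6J value was -0.98 with an adjusted p of 0.0522 without d17 replicate 3. Both calls were lost in the model of all 27 libraries (-1.03 ± 0.57 and -1.21 ± 0.57, edgeR adjusted p = 0.212 and 0.275). In AKR/J the late log2 fold change was 0.05, and 0.50 without d15 replicate 1 (edgeR adjusted p = 0.0464). No early change passed the test with all libraries (0.63 ± 0.80, 0.66 ± 0.29 and 0.80 ± 0.41 in AKR/J, C57BL/6J and Cav1-null), and without replicate 3 of d12 Fezf2 rose in C57BL/6J (0.36, edgeR adjusted p = 0.0469) and in Cav1-null (0.39, edgeR adjusted p = 0.00802) and was at 0.10 in AKR/J.

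Sox5 encodes a SOX-family factor that holds back corticofugal maturation until the right time. In AKR/J it had 29.4, 31.7 and 17.5 CPM on d12, 122, 74.3 and 72.4 CPM on d15, and 95.6, 80.5 and 65.6 CPM on d17. In C57BL/6J it had 80.8, 96.6 and 36.7 CPM on d12, 196, 208 and 178 CPM on d15, and 91.7, 63.5 and 76.4 CPM on d17. In Cav1-null it had 85.7, 81.9 and 35.8 CPM on d12, 107, 114 and 116 CPM on d15, and 65.3, 64.8 and 72.9 CPM on d17. The d15 libraries were above all d12 libraries in each strain, and above all d17 libraries in C57BL/6J and Cav1-null. Sox5 rose early in AKR/J (1.72 ± 0.29, edgeR adjusted p = 0.00504) and in C57BL/6J (1.40 ± 0.30, edgeR adjusted p = 0.0315). The C57BL/6J call was lost without d12 replicate 1 or any of the d15 libraries (log2 fold changes of 1.37 to 1.52, adjusted p = 0.0752 to 0.128). In Cav1-null the early value of 0.74 ± 0.26 (edgeR adjusted p = 0.0755) passed without d12 replicate 3 (0.43, adjusted p = 0.00103), and with all libraries by edgeR's likelihood-ratio test (adjusted p = 0.0292) and without the filter on low counts (adjusted p = 0.0102). Sox5 fell late by 1.26 ± 0.17 in C57BL/6J (edgeR adjusted p = 0.00798) and by 0.73 ± 0.08 in Cav1-null (edgeR adjusted p = 1.51e-05). The C57BL/6J call was lost without d15 replicate 2 (-1.23, adjusted p = 0.0507) or d17 replicate 3 (-1.27, adjusted p = 0.0603). The Cav1-null call was lost in the model of all 27 libraries (-0.74 ± 0.30, edgeR adjusted p = 0.200). In AKR/J the late value was not called and the rise from d12 to d17 was 1.62 ± 0.25 (edgeR adjusted p = 0.00118).

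Rorb encodes an orphan nuclear receptor of layer 4 neurons, and its mean level was higher at each later day in every strain. The AKR/J libraries had 8.41, 10.5 and 12.4 CPM on d12, 16.8, 14.8 and 18.8 CPM on d15, and 28.3, 28.7 and 26.6 CPM on d17. The C57BL/6J libraries had 14.2, 12.1 and 10.3 CPM on d12, 17.8, 23.1 and 24.4 CPM on d15, and 29.5, 27.5 and 30.5 CPM on d17. The Cav1-null libraries had 14.8, 14.7 and 12.7 CPM on d12, 26.3, 27.3 and 31.8 CPM on d15, and 29.3, 31.0 and 31.5 CPM on d17. Every d17 library was above every d12 library of its strain, including the replicate 3 libraries that were low in the deep-layer members. Rorb rose from d12 to d17 in AKR/J (1.42 ± 0.19, edgeR adjusted p = 0.000535), in C57BL/6J (1.28 ± 0.19, edgeR adjusted p = 0.00329) and in Cav1-null (1.11 ± 0.11, edgeR adjusted p = 0.000114). In Cav1-null the rise passed the test in the early phase (1.02 ± 0.12, edgeR adjusted p = 0.000901), and the late value was 0.11 ± 0.10. In AKR/J it passed in the late phase (0.75 ± 0.11, edgeR adjusted p = 0.00285), with 0.64 ± 0.22 in the early phase (adjusted p = 0.0643). That early value was called in the model of all 27 libraries (0.68, edgeR adjusted p = 0.000853) and with library sizes alone (1.08, edgeR adjusted p = 0.0356). In C57BL/6J the early rise of 0.78 ± 0.18 passed (edgeR adjusted p = 0.0353), with a late value of 0.48 ± 0.15 (adjusted p = 0.0734). The late value was called in the model of all 27 libraries (0.42, edgeR adjusted p = 0.0482) and with library sizes alone (0.62, edgeR adjusted p = 0.0333). The early C57BL/6J call was lost without d12 replicate 1 or any of the d15 libraries (0.72 to 0.93, adjusted p = 0.0603 to 0.148). It was also lost with the replicate number as a block (0.79, edgeR adjusted p = 0.0927). The timing was tested only against C57BL/6J, and AKR/J was not compared with Cav1-null. Against C57BL/6J the early change of Rorb differed by -0.20 ± 0.29 in AKR/J and 0.20 ± 0.22 in Cav1-null (edgeR adjusted p = 0.769 and 0.698), and the late change by 0.30 ± 0.18 and -0.41 ± 0.18 (edgeR adjusted p = 0.737 and 0.208).

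Cux2, whose protein acts in dendritic branching and spine formation of upper-layer neurons, was lowest on d12 in each strain. Levels in AKR/J were 32.0, 72.1 and 39.4 CPM on d12, 91.5, 67.7 and 83.9 CPM on d15, and 103, 82.7 and 84.6 CPM on d17. Levels in C57BL/6J were 88.9, 109 and 69.9 CPM on d12, 136, 145 and 156 CPM on d15, and 155, 100.3 and 103 CPM on d17. Levels in Cav1-null were 67.1, 56.3 and 69.9 CPM on d12, 98.3, 80.2 and 82.5 CPM on d15, and 89.7, 93.3 and 103 CPM on d17. The d15 libraries lay above those of d12 in C57BL/6J and Cav1-null, and in AKR/J the highest d12 library overlapped with d15. Cux2 rose early in C57BL/6J (0.66 ± 0.15, edgeR adjusted p = 0.0330) and in Cav1-null (0.43 ± 0.12, edgeR adjusted p = 0.0297), and the AKR/J value was 0.71 ± 0.30 (edgeR adjusted p = 0.111). The C57BL/6J call was lost without d12 replicate 1 or any of the d15 libraries (0.63 to 0.73, adjusted p = 0.0869 to 0.141). It was also lost with junction reads (0.08, edgeR adjusted p = 0.891) and with the replicate number as a block (0.68, edgeR adjusted p = 0.0755). The Cav1-null call was lost without any library except d12 replicate 3 (0.33 to 0.49, adjusted p = 0.0619 to 0.123). In AKR/J the value was 1.11 without d12 replicate 2 (edgeR adjusted p = 0.00218). It was called with all libraries in the model of 27 (0.76, edgeR adjusted p = 0.00873) and without the filter on low counts (0.76, edgeR adjusted p = 0.0488). From d12 to d17 Cux2 rose in Cav1-null (0.55 ± 0.11, edgeR adjusted p = 0.00495) and in AKR/J (0.91 ± 0.29, edgeR adjusted p = 0.0318). The AKR/J call was lost without any library except d12 replicate 2 (0.69 to 0.99, adjusted p = 0.0659 to 0.111). With the GC and length trend removed the AKR/J value was 0.45 and was not called (edgeR adjusted p = 0.108), the Cav1-null value was 0.45 (edgeR adjusted p = 0.00573), and that of C57BL/6J, 0.46 in the fit as described (edgeR adjusted p = 0.201), was called at 0.58 (edgeR adjusted p = 0.0149). In the model of all 27 libraries both Cav1-null calls of Cux2 were lost (early 0.43, edgeR adjusted p = 0.222, and d12 to d17 0.56, edgeR adjusted p = 0.0564).

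Pou3f2, a POU-domain factor of late progenitors and migrating upper-layer neurons, was called lower on d17 than on d12 in each strain. Levels in AKR/J were 182, 197.5 and 303 CPM on d12, 126, 91.4 and 163 CPM on d15, and 143, 132 and 112 CPM on d17. Levels in C57BL/6J were 165, 223 and 242 CPM on d12, 172, 193 and 167.5 CPM on d15, and 118, 101 and 125 CPM on d17. Levels in Cav1-null were 142, 161 and 119 CPM on d12, 118.5, 125 and 136 CPM on d15, and 99.6, 110.2 and 120 CPM on d17. The highest TMM-scaled Pou3f2 level of all 27 libraries was in d12 AKR/J replicate 3, the library in which Tbr1 was at 0. That library had a TMM factor of 0.688, and with library sizes alone it was not the highest. Pou3f2 fell from d12 to d17 by 0.81 ± 0.22 in AKR/J (edgeR adjusted p = 0.0180), by 0.84 ± 0.21 in C57BL/6J (edgeR adjusted p = 0.0214) and by 0.37 ± 0.12 in Cav1-null (edgeR adjusted p = 0.0317). Each of these calls was lost without single libraries. In AKR/J they were d12 replicate 3 and each d17 library (-0.55 to -0.88, adjusted p = 0.0519 to 0.0958). In C57BL/6J they were d12 replicates 2 and 3 and d17 replicates 2 and 3 (-0.73 to -0.92, adjusted p = 0.0566 to 0.0705). In Cav1-null they were all libraries except d12 replicate 3 (-0.23 to -0.40, adjusted p = 0.0835 to 0.200). The Cav1-null call was also lost with the GC and length trend removed (-0.39, edgeR adjusted p = 0.0565), with relative log expression scaling (-0.34, edgeR adjusted p = 0.0562) and in the model of all 27 libraries (-0.36, edgeR adjusted p = 0.176), and the AKR/J call with library sizes alone (-0.41, edgeR adjusted p = 0.241). With the replicate number as a block, the calls of Cav1-null (-0.36, edgeR adjusted p = 0.062) and C57BL/6J (-0.83, edgeR adjusted p = 0.072) were lost.

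Within the phases Pou3f2 fell early in AKR/J (fell by 0.89 ± 0.28, edgeR adjusted p = 0.0438) and late in C57BL/6J (fell by 0.57 ± 0.14, edgeR adjusted p = 0.0421). The AKR/J call was lost without any library except d12 replicate 2, with -0.62 and an adjusted p of 0.1525 without d12 replicate 3. It was also lost with the GC and length trend removed (-0.80, edgeR adjusted p = 0.0682) and with library sizes alone (-0.42, edgeR adjusted p = 0.310). The C57BL/6J call was lost without any d15 library or d17 replicate 3 (-0.52 to -0.65, adjusted p = 0.113 to 0.164) or with library sizes alone (-0.43, edgeR adjusted p = 0.0613). It was also lost with the replicate number as a block (-0.57, edgeR adjusted p = 0.0872). In Cav1-null the early value was -0.15 and passed without d12 replicate 3 (-0.25, edgeR adjusted p = 0.0427). Cux1, a CUT homeobox gene, ranged from 115 to 248 CPM over all libraries. Under TMM scaling this was the smallest ratio of highest to lowest level among the members (2.16), an order that depends on the scaling. Its development passed no test in the fit as described, and its early log2 fold change in C57BL/6J was -0.01 ± 0.10. With the trend of exon GC content and length removed, Cux1 was called lower in 4 comparisons. These were the early phase of C57BL/6J (-0.45, edgeR adjusted p = 0.0284), the late phase of Cav1-null (-0.19, edgeR adjusted p = 0.0248), and d12 to d17 in AKR/J (-0.41, edgeR adjusted p = 0.0285) and in C57BL/6J (-0.54, edgeR adjusted p = 0.0219). The model of all 27 libraries called Cux1 lower in C57BL/6J in the late phase (-0.44, edgeR adjusted p = 0.0427) and from d12 to d17 (-0.41, edgeR adjusted p = 0.0377). Without d12 replicate 2 of AKR/J its early change there was 0.43 (edgeR adjusted p = 0.0222) and its change from d12 to d17 was 0.49 (edgeR adjusted p = 0.00318). Without d17 replicate 1 of C57BL/6J its late change was -0.48 (edgeR adjusted p = 0.0174), and that of Cux2 was -0.47 (edgeR adjusted p = 0.0174).

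The balance of upper-layer to deep-layer regulators was followed as the mean log2(CPM + 0.5) of the 4 upper-layer members minus that of the 4 deep-layer members in each library. On d15 it was -0.96, -0.86 and -0.74 in C57BL/6J, -0.33, 0.20 and 0.49 in AKR/J, and 0.03, -0.02 and 0.01 in Cav1-null. On d17 it was -0.20, 0.79 and 0.35 in C57BL/6J, 0.34, 0.51 and 0.64 in AKR/J, and 0.69, 0.70 and 0.60 in Cav1-null. The d17 libraries were all above those of d15 in C57BL/6J and Cav1-null, and the days overlapped in AKR/J. On d12 the balance was -0.34, -0.33 and 1.09 in C57BL/6J, 0.25, 0.96 and 3.77 in AKR/J, and -0.21, -0.07 and 1.51 in Cav1-null, with replicate 3 the highest each time.

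The deep-layer mean varied more between groups than the upper-layer mean. The upper-layer mean varied between 5.95 and 6.74 over the 9 groups, whereas the deep-layer mean ran from 4.29 ± 1.74 (d12 AKR/J) to 7.60 ± 0.09 (d15 C57BL/6J). Of the 16 pairs of an upper-layer with a deep-layer gene, the log2 ratio of upper to deep was higher on d17 than on d15 in 14 pairs for AKR/J, 16 for C57BL/6J and 15 for Cav1-null, with median changes of 0.28, 1.09 and 0.62. The libraries of the days did not overlap in 4, 14 and 12 of these pairs. Over single genes 41.6%, 41.3% and 41.7% of those tested had groups that did not overlap in these late-phase comparisons. Pairs share genes and libraries and are not independent, so no test was made of them. From d12 to d15 the ratio was lower in 16, 15 and 12 of 16 pairs, with medians of -1.39, -0.85 and -0.42. These values include replicate 3 of d12, and the count of 0 for Tbr1 in the AKR/J library takes its log value from the pseudocount of 0.5. Without replicate 3 of d12 the ratio was lower in 10, 14 and 6 of 16 pairs, with medians of -0.65, -0.47 and 0.07. The early change of the mean balance went from -1.54 to -0.49 in AKR/J without it, from about -1.0 to -0.52 in C57BL/6J and from -0.40 to 0.15 in Cav1-null.

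**Figure D3:**
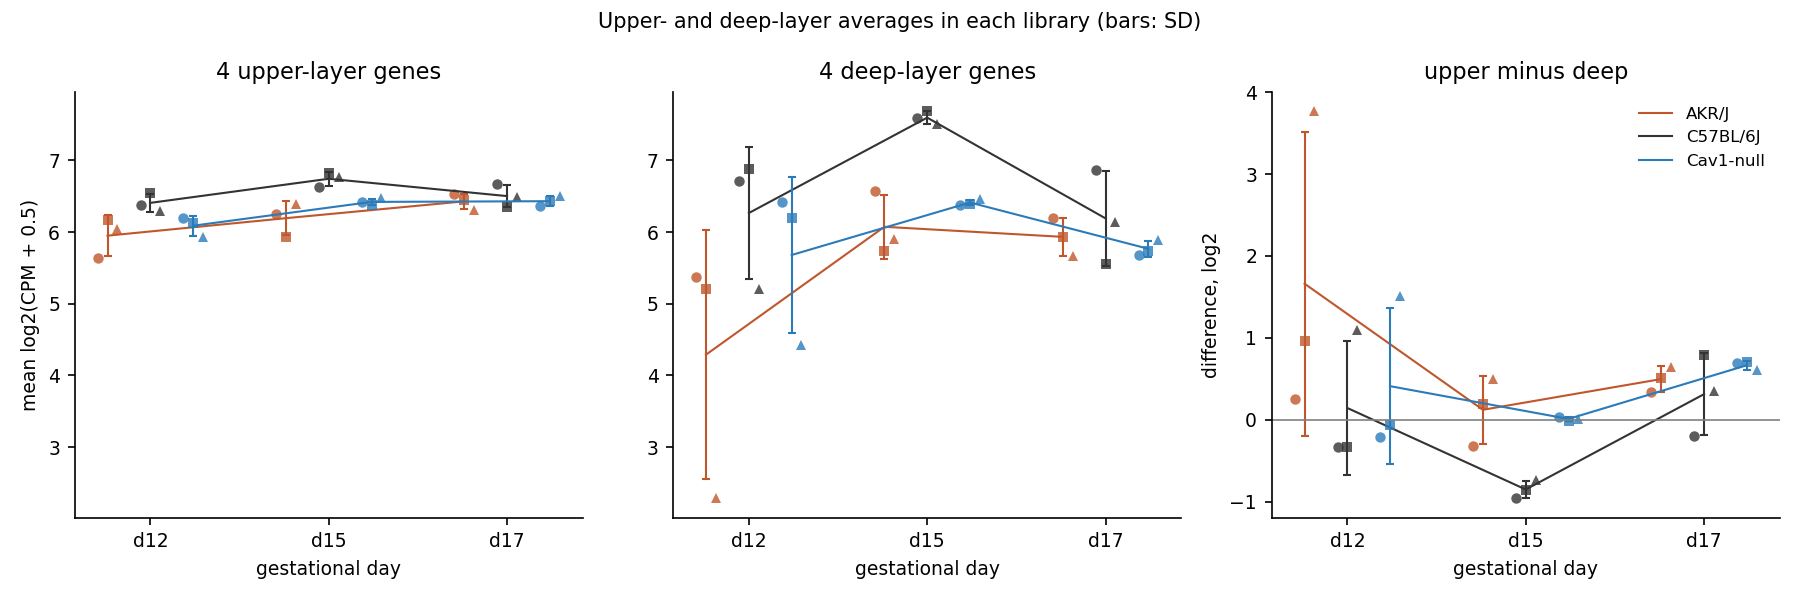
The panels plot the mean log2(CPM + 0.5) of the upper-layer members, that of the deep-layer members and their difference by gestational day and strain, with a point per library, the group mean as a line and the SD as bars. The upper-layer means stay between 5.95 and 6.74 while the deep-layer means span 4.29 to 7.60, and the d15 C57BL/6J libraries have the lowest balance (-0.96 to -0.74).

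The strains were then compared with C57BL/6J on each day. Both comparisons use the same C57BL/6J libraries, so their values are not independent. On d12, 2 of 8 members were called between AKR/J and C57BL/6J (28.6% of 19320 genes), and edgeR called none between Cav1-null and C57BL/6J, where 0% of 19475 genes passed. In that comparison 2 members and 4309 genes had an unadjusted p under 0.05, and DESeq2 called none of the members. On d15, 6 of 8 members were called for AKR/J (41.1% of 19692 genes) and 7 of 8 for Cav1-null (58.6% of 19827 genes). On d17 edgeR called none of the members in either comparison, with 0.742% of 20207 genes called for AKR/J and 0.0491% of 20358 genes for Cav1-null. None had an unadjusted p under 0.05, and DESeq2 called none.

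On d15 every called deep-layer member was lower than in C57BL/6J in both strains. Their median log2 fold change was -1.39 in AKR/J and -1.28 in Cav1-null, that of the upper-layer members -0.41 and -0.43, and that of all tested genes 0.06 and 0.03. Tbr1 differed by -2.03 ± 0.26 in AKR/J (edgeR adjusted p = 0.000932) and by -1.83 ± 0.07 in Cav1-null (edgeR adjusted p = 2.07e-08). Bcl11b differed by -1.73 ± 0.11 in AKR/J (edgeR adjusted p = 0.000126) and by -1.88 ± 0.06 in Cav1-null (edgeR adjusted p = 1.50e-08). Sox5 differed by -1.05 ± 0.20 (edgeR adjusted p = 0.00454) and -0.74 ± 0.07 (edgeR adjusted p = 4.53e-06). In each of these comparisons the 3 C57BL/6J libraries lay above the 3 of the other strain, and no single library decided a call. Over all tested genes the d15 groups did not overlap for 54.6% in AKR/J and 65.6% in Cav1-null, with 27.2% and 34% lower than C57BL/6J. The Tbr1 calls were lost in the model of all 27 libraries (-2.10 in AKR/J and -1.87 in Cav1-null, edgeR adjusted p = 0.0790 and 0.0907), and those of Bcl11b and Sox5 were kept.

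Fezf2 did not follow the other deep-layer genes in Cav1-null. Its log2 fold change on d15 was -0.83 ± 0.28 in AKR/J (edgeR adjusted p = 0.0491) and -0.14 ± 0.06 in Cav1-null (edgeR adjusted p = 0.0655). The AKR/J call was lost without any single library other than d15 AKR/J replicate 1 (-0.62 to -0.87, adjusted p = 0.101 to 0.129), and without that library the value was -1.29 (adjusted p = 0.00162). It was also lost with library sizes alone (-0.66, edgeR adjusted p = 0.0941) and in the model of all 27 libraries (-0.89, edgeR adjusted p = 0.269). The Cav1-null value passed without d15 C57BL/6J replicate 3 (-0.19, adjusted p = 0.0384) and without the filter on low counts (-0.18, edgeR adjusted p = 0.0329).

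Among the upper-layer members Cux2 was lower on d15 in AKR/J (-0.78 ± 0.10, edgeR adjusted p = 0.00115) and in Cav1-null (-0.70 ± 0.08, edgeR adjusted p = 4.62e-05). Cux1 was lower in AKR/J (-0.40 ± 0.09, edgeR adjusted p = 0.0105) and in Cav1-null (-0.41 ± 0.06, edgeR adjusted p = 0.000136), and its AKR/J call was lost without d15 AKR/J replicate 1 (-0.41, adjusted p = 0.0636) or d15 C57BL/6J replicate 2 (-0.36, adjusted p = 0.0792), and with library sizes alone (-0.23, adjusted p = 0.0536). Pou3f2 was lower in Cav1-null (-0.45 ± 0.07, edgeR adjusted p = 0.000251, and 0.0527 in the model of all 27 libraries), and its AKR/J value of -0.42 ± 0.17 (edgeR adjusted p = 0.0917) passed without d15 AKR/J replicate 3 (-0.66, adjusted p = 0.0128) and with DESeq2 (-0.43, adjusted p = 0.0480). Rorb was the exception in direction. It was higher in Cav1-null (0.43 ± 0.12, edgeR adjusted p = 0.0121, and 0.35 with an adjusted p of 0.0557 without d15 Cav1-null replicate 3) and had -0.31 ± 0.14 in AKR/J (edgeR adjusted p = 0.1235, and -0.45 with an adjusted p of 0.0378 without d15 C57BL/6J replicate 1).

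The differences of d15 moved with the base composition of genes. Among all genes the median log2 fold change against C57BL/6J ran from 0.49 in the lowest of 10 equal bins of exon GC content to -0.38 in the highest in AKR/J, and from 0.68 to -0.58 in Cav1-null. The GC content of the members was 41.6% (Rorb), 44.4% (Pou3f2), 45.7% (Sox5), 50.9% (Bcl11b), 51.1% (Tbr1), 55.6% (Fezf2) and 57% (Cux2), with Cux1 between Sox5 and Bcl11b. When the trend with GC content and length was removed from each library, Tbr1 stayed lower (-1.85 in AKR/J with an edgeR adjusted p of 0.00460, and -1.56 in Cav1-null with 9.21e-08). Bcl11b stayed lower too (-1.37, edgeR adjusted p = 0.00138, and -1.38, edgeR adjusted p = 1.36e-07), as did Sox5 (-0.84, edgeR adjusted p = 0.0225, and -0.45, edgeR adjusted p = 0.000111).

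The upper-layer differences did not hold in the same way. After this correction Cux1 was at 0.08 in AKR/J (edgeR adjusted p = 0.569) and higher in Cav1-null (0.22, edgeR adjusted p = 0.00939), and Cux2 was at -0.03 in AKR/J (edgeR adjusted p = 0.901) and higher in Cav1-null (0.32, edgeR adjusted p = 0.0102). Fezf2 was at -0.57 in AKR/J (edgeR adjusted p = 0.200) and higher in Cav1-null (0.26, edgeR adjusted p = 0.0123). Rorb was at 0.26 in Cav1-null (edgeR adjusted p = 0.0805), and Pou3f2 remained lower there (-0.66, edgeR adjusted p = 9.22e-06). Within its own bin of GC content, Tbr1 was lower than all but 0.6% of genes in AKR/J and 3.2% in Cav1-null, and Bcl11b than all but 1.5% and 2.8%, whereas Cux2 lay at 27.5% and 45.0%. The directions of Cux1, Cux2 and Fezf2 on d15 in Cav1-null thus depend on this choice, and which of the values is nearer to the level of RNA in the brain was not tested.

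**Figure D4:**
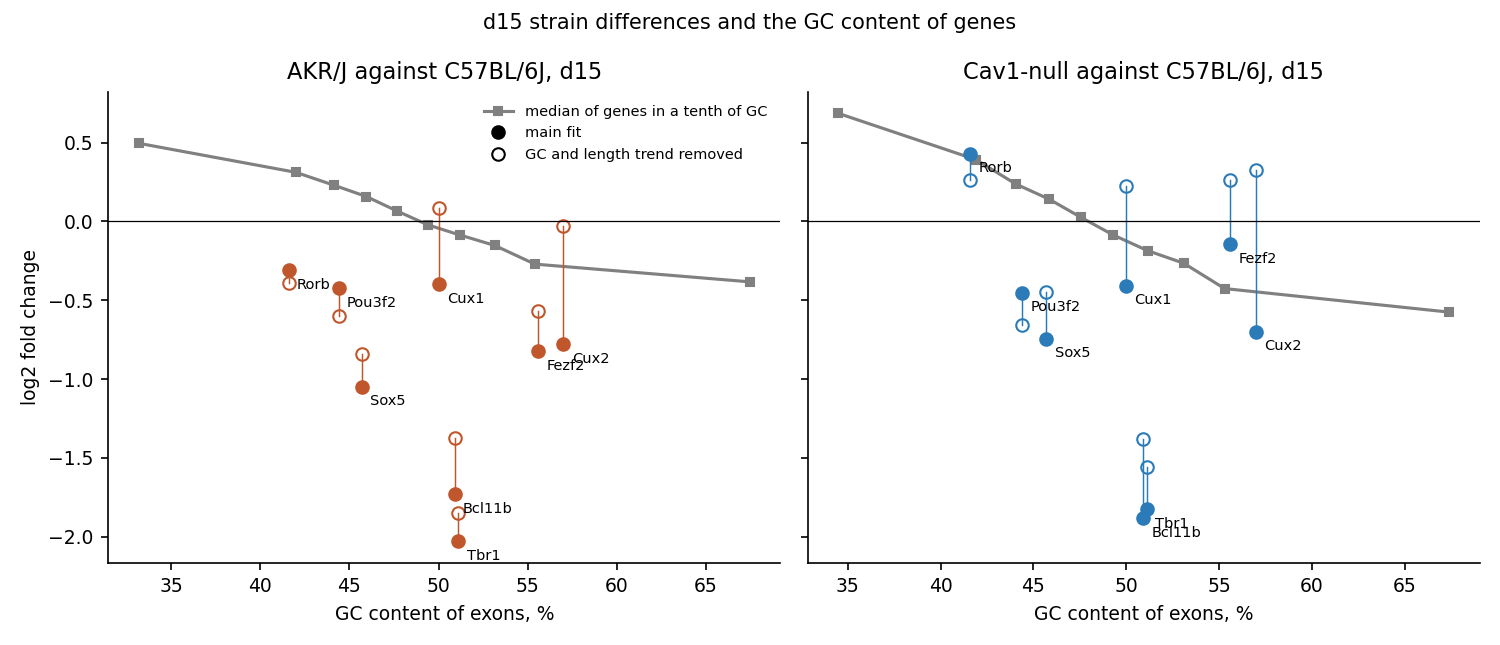
The panels plot the d15 log2 fold change of each member against C57BL/6J over the GC content of its exons (percent), for AKR/J and Cav1-null, with filled points for the fit as described, open points with the GC and length trend removed, and grey squares for the median of all genes in each bin of GC content. Tbr1 and Bcl11b stay at -1.37 or below in both strains, and Cux1 and Cux2 move from -0.78 to -0.40 up to -0.03 to 0.32.

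On d12 Bcl11b was lower in AKR/J than in C57BL/6J (-1.92 ± 0.51, edgeR adjusted p = 0.0257) although the libraries overlapped on the scaling of that comparison, and Sox5 was lower without overlap (-1.30 ± 0.37, edgeR adjusted p = 0.0316). In that comparison 47.1% of tested genes had groups that did not overlap. Both calls were lost without AKR/J replicate 1 or 3 or C57BL/6J replicate 1 or 2 (Bcl11b -1.64 to -2.01, adjusted p = 0.0739 to 0.101, and Sox5 -1.07 to -1.39, adjusted p = 0.0802 to 0.124). They were also lost with the GC and length trend removed (Bcl11b -1.42, edgeR adjusted p = 0.0588, and Sox5 -0.95, edgeR adjusted p = 0.0716). The trend with GC content on d12 in AKR/J went from a median of 0.75 for the genes of the lowest bin to -0.42 for those of the highest. Without AKR/J replicate 2, Cux1 (-0.79, edgeR adjusted p = 0.00822) and Cux2 (-1.18, edgeR adjusted p = 0.00841) passed as well. In the model of all 27 libraries they passed with no library left out (-0.73 and -0.90, edgeR adjusted p = 0.000396 and 0.00208), and so did Cux2 without the filter on low counts (-0.84, edgeR adjusted p = 0.0291). With the replicate 3 libraries of d12 left out of both strains, an alternative added after seeing the data, Tbr1 (-1.49), Bcl11b (-2.08) and Sox5 (-1.40) were lower in AKR/J, with edgeR adjusted p = 0.0257, 0.0123 and 0.0252. In the same way Tbr1 (-0.85), Bcl11b (-0.75) and Cux2 (-0.62) were lower in Cav1-null, with edgeR adjusted p = 0.0185, 0.0182 and 0.0270, whereas with all libraries Tbr1 was at -0.97 ± 0.77 and Bcl11b at -0.64 ± 0.51 there. On d17 Tbr1 was at -0.88 ± 0.48 and Bcl11b at -0.94 ± 0.50 in AKR/J, and at -0.95 ± 0.47 and -0.71 ± 0.50 in Cav1-null. C57BL/6J replicate 2 had the lowest Tbr1 and Bcl11b of its d17 group, and without it Tbr1 (-1.23) and Bcl11b (-1.31) passed in AKR/J (edgeR adjusted p = 0.0239 and 0.0158) and Tbr1 (-1.33) in Cav1-null (edgeR adjusted p = 0.0319). That library was singled out by these same genes, and leaving out the lowest of the C57BL/6J group widens the difference by construction. These calls are therefore no test of a d17 difference, and with all libraries no member was called on d17.

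Whether the strains changed differently over time was tested as an interaction. EdgeR called no member in the early or late phase for either strain, and DESeq2 called none either. Members with an unadjusted p under 0.05 numbered 0 in both early tests, 4 in the late test of AKR/J and 3 in that of Cav1-null. Over all genes 16.3% (AKR/J) and 15% (Cav1-null) had such a p in the early tests, and 7.57% and 21.9% in the late tests. By adjusted p, 0.0711% and 0.00468% were called for AKR/J in the early and late phase, and 0.00472% and 0.252% for Cav1-null. The late change of Tbr1 exceeded that of C57BL/6J by 1.22 ± 0.61 in AKR/J (edgeR adjusted p = 0.687) and by 0.83 ± 0.53 in Cav1-null (edgeR adjusted p = 0.370).

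These late-phase interactions turned on d17 C57BL/6J replicate 1, the library with the highest Tbr1 (164 CPM) and Bcl11b (287 CPM) of its group. Without it the difference in late change was 2.03 for Tbr1, 1.62 for Bcl11b and 1.30 for Sox5 in AKR/J (edgeR adjusted p = 0.0245, 0.0393 and 0.0352). In Cav1-null it was 1.74 for Tbr1, 1.98 for Bcl11b, 0.74 for Sox5, 0.54 for Cux1 and 0.65 for Cux2 (edgeR adjusted p = 0.000510, 0.00198, 0.00272, 0.00389 and 0.00539). The share of all genes called without that library is not given here. The library was also singled out by its Tbr1 and Bcl11b levels, so these calls in both strains are no test of the layer genes. Without d15 AKR/J replicate 1 the value of Fezf2 in AKR/J was 1.51 (edgeR adjusted p = 0.0326), against 1.04 ± 0.34 with it. With the replicate 3 libraries of d12 left out, the early change was smaller in Cav1-null than in C57BL/6J for Tbr1 (-0.92, edgeR adjusted p = 0.0443) and Bcl11b (-1.09, edgeR adjusted p = 0.00739).

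The members fell into different company over the 27 libraries. Among 16446 genes with a mean of at least 1 CPM, those most like Tbr1 included Sel1l3 (r = 0.923) and Eomes (0.920), the gene of intermediate progenitors, and those most like Fezf2 included Eomes (0.921) and Lhx6 (0.879), a gene of cortical interneurons. Bcl11b was most like Foxo6 (0.968), Kif21b (0.965) and Cdh4 (0.958), and Sox5 most like Nfib (0.984), Bcl11a (0.951) and Dpy19l1 (0.951). Cux1 was most like Ptk2 (0.941), Brsk2 (0.938) and Usp7 (0.938), and Cux2 most like Rubcn (0.969), Camsap3 (0.969) and Pitpnm2 (0.967). Pou3f2 was most like Efna2 (0.924), Rbm38 (0.884) and Tlk1 (0.869), and Rorb most like Lgi1 (0.965), Drd1 (0.963), the dopamine receptor gene of striatal and cortical neurons, and Lhfpl3 (0.962). Among the members Tbr1 with Fezf2 had r = 0.929, Bcl11b with Sox5 0.883 and Tbr1 with Bcl11b 0.830. The order of these pairs rests on d12 AKR/J replicate 3, where Tbr1 was at 0, and without that library they had r = 0.817, 0.851 and 0.873. The genes named as most like each member were ranked with that library included. Cux1 and Cux2 had r = 0.707, and Pou3f2 and Rorb, both counted as upper-layer genes, had r = -0.617. The grouping into deep and upper layers therefore did not set the order of likeness, since Bcl11b was closer to Cux2 (0.804) and Cux1 (0.798) than to Fezf2 (0.688).

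Splice junctions gave a view of the transcripts behind the counts. The junction table held 44 junctions of the members, 14 of Sox5, 13 of Cux1, 12 of Cux2, 2 of Tbr1, 2 of Rorb, 1 of Fezf2 and none of Bcl11b or Pou3f2. The study removed junctions with few reads, short overhangs or reads that mapped to several places, so a value of 0 can stand for removed reads. This was visible for Tbr1, whose junctions were at 0 in all 3 d15 C57BL/6J libraries, where its gene reads were highest. Junction shares are therefore given only for libraries with reads on both junctions, without tests.

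Cux1 encodes 2 unlike proteins. The long transcripts make the CUT homeodomain factor, and the short ones make CASP, a Golgi membrane protein that shares its first exons and lacks the DNA-binding domains. Among coding transcripts of the annotation, 8 with coding lengths of 4166 to 4584 bases belonged to the homeodomain form and 28 with 1710 to 2151 bases to the CASP form. Junctions found only in the CASP form had medians of 149, 170 and 188 reads per library, and those found only in the homeodomain form had medians of 27, 4 and 2. The homeodomain share, from the best covered junction of each form, was 13.8% ± 4.31 (SD over 24 libraries, 5.79% to 21.6%). That value depends on the junction, since this homeodomain junction was the one with the most reads. At the donor from which both forms splice onward, where the homeodomain junction had a median of 2 reads and was at 0 in 9 libraries, the share was 2.16% ± 1.65 (18 libraries, 0.524% to 7.27%). At the best covered pair it was 18.0% ± 2.68 on d12 (13.3% to 21.6%, n = 8), 12.6% ± 2.51 on d15 (8.49% to 14.5%, n = 8) and 10.7% ± 3.91 on d17 (5.79% to 16.5%, n = 8). Within AKR/J every d12 value (19.05% to 21.6%) was above those of d15 (8.49% to 14.5%) and d17 (5.79% to 13.2%), and within Cav1-null d12 (17.4% to 18.9%) was above d15 (8.74% to 14.2%) and d17 (8.72% to 16.5%). The days overlapped in C57BL/6J and over all strains. At this pair of junctions most reads belonged to the form that is not a transcription factor. Reads of the exons that both forms share are counted for Cux1 whichever form they came from.

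At the Cux1 acceptor printed above, the exon longer by 6 bases took 31.1% ± 5.22 of the junction reads (26 libraries), with medians of 36.0% on d12 (26.7% to 47.5%), 30.7% on d15 (21.1% to 32.9%) and 29.01% on d17 (21.3% to 32.9%). At the Sox5 acceptor the exon longer by 3 bases took 10.02% ± 6.03 (22 libraries). The upstream donor of Tbr1, which begins its intron with gc in place of the usual gt, had a median of 24 reads and the downstream donor a median of 1. The downstream donor took 20.6% ± 7.74 of reads on d12 (6 libraries, 7.43% to 28.6%), 6.14% ± 4.61 on d15 (4 libraries) and 5.19% ± 2.99 on d17 (5 libraries). Over all strains the d12 range overlapped with both later days. Within each strain the d12 libraries with a value were above those of the later days, with 25% in both AKR/J libraries against 3.03% to 13.04%, 7.43% and 21.7% in C57BL/6J against 4.17% and 5.06% on d17 alone, and 15.9% and 28.6% in Cav1-null against 3.51% and 3.33%. Sox5 exon choices elsewhere in the gene took 28.9% ± 9.18 (17 libraries) and 26.5% ± 12.8 (22 libraries) of their reads with no day apart from the others.

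Other genes of the cortical layers were counted from lists that hold none of the members. Of all tested genes 14.8%, 7.08% and 11.6% were called higher and 14%, 7.8% and 11.8% lower early in AKR/J, C57BL/6J and Cav1-null, and 11.6%, 7.46% and 14.5% higher and 10.4%, 5.58% and 12.8% lower late. Of 15 deep-layer and subplate genes, edgeR called 5 higher and 1 lower early in AKR/J, 3 and 1 of 14 tested in C57BL/6J, and 3 and 4 of 14 in Cav1-null. In the late phase the counts were 2 higher and 2 lower in AKR/J, 3 and 1 in C57BL/6J, and 5 and 1 in Cav1-null, with medians of -0.12, -0.18 and 0.14. Pcp4, a calmodulin regulator of layer 5, rose late in AKR/J (1.37 ± 0.24, edgeR adjusted p = 0.00603) and C57BL/6J (1.48 ± 0.19, edgeR adjusted p = 0.00709), and Otx1, a homeobox gene of progenitors and layer 5, fell late in AKR/J (-1.11), C57BL/6J (-1.35) and Cav1-null (-0.86). Of 12 upper-layer genes, 6, 5 and 4 were called higher early and 5, 3 and 5 late in AKR/J, C57BL/6J and Cav1-null, with 1, 1, 2 and 1, 1, 1 called lower.

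A list of cofactors and targets of the regulators was counted in the same way. Of 12 such genes, 0 were called higher and 5 lower late in C57BL/6J (median -1.0), 2 and 8 in Cav1-null (-0.44), and 2 and 3 in AKR/J (-0.37). On d15, 11 of 12 were called lower than C57BL/6J in AKR/J (median -1.05) and 11 lower and 1 higher in Cav1-null (-1.10), against 22.3% and 31.8% of all genes called lower and 18.8% and 26.8% called higher. Progenitor genes of the pallium fell late in every strain, with 7, 8 and 9 of 10 called lower in AKR/J, C57BL/6J and Cav1-null and none higher. Neurog1, a proneural factor gene, fell late in all 3 strains, with log2 fold changes of -3.21 ± 0.52 for AKR/J, -4.15 ± 0.34 for C57BL/6J and -2.61 ± 0.59 for Cav1-null (edgeR adjusted p = 0.00454, 0.00350 and 0.00516). On d15, 6 and 10 of these 10 were called lower in AKR/J and Cav1-null than in C57BL/6J.

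Markers of regions that also express the members were set beside these results for d15. Of all tested genes on that day, 22.3% and 31.8% were called lower than C57BL/6J in AKR/J and Cav1-null, and 18.8% and 26.8% higher. The counts that follow are to be read beside these shares. Of 12 genes of the ventral telencephalon and striatum, 6 were called lower and 0 higher in AKR/J, and 7 lower and 1 higher in Cav1-null. Their summed level was 964 to 1078 CPM for C57BL/6J, 669 to 768 CPM for AKR/J and 761 to 808 CPM for Cav1-null. Of 6 thalamic genes, 3 and 5 were called lower and none higher, with sums of 646 to 766, 414 to 634 and 408 to 449 CPM in C57BL/6J, AKR/J and Cav1-null. Of 8 genes of pallial glutamatergic neurons, 5 and 5 were called lower and 0 and 1 higher, with sums of 1022 to 1129, 523 to 903 and 983 to 1073 CPM. Genes of erythroid cells summed to 826 to 1069 CPM for C57BL/6J, 2012 to 3071 CPM for AKR/J and 2910 to 3617 CPM for Cav1-null, with 7 and 6 of 12 tested called higher and 1 and 2 called lower. The part of these sources in the d15 values of the members was not tested.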

How the data were processed

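RNA of dissected whole fetal brains was captured on poly-T beads and sequenced by the authors. Per the labels, processing used FastQC, cutadapt, fastp, STAR, bedtools and edgeR on GRCm39; the counting tool, the strand setting and the treatment of multi-mapped reads are not given in the sources used here. The authors deposited raw read counts per gene and read counts per splice junction from a 2-pass STAR alignment. The 55670 junctions fill 130424 rows, 1 per transcript, and each junction was counted once. Samples were grouped by the strain and gestational day in the labels.

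Counts of each comparison were filtered (filterByExpr), scaled by TMM and tested with edgeR 4.0.16 in R 4.3.3 (quasi-likelihood F test, Benjamini-Hochberg adjustment, called under 0.05), with the libraries of the groups compared only. SEs are the log2 fold change divided by the square root of F. Levels are CPM scaled by TMM over 27 libraries, and log2 values use a pseudocount of 0.5 CPM. Tables and figures used Python 3.11.15, numpy 2.4.6, pandas 2.3.3 and matplotlib 3.10.9. Sequences and exon lengths came from the GRCm39 genome and GENCODE annotation. Fits were tested on simulated counts with known changes. The fits simulated were C57BL/6J late, AKR/J against C57BL/6J on d15, and the Cav1-null difference in late change. They recovered 21%, 34% and 24% of 2-fold changes, and 82%, 73% and 65% of 4-fold changes.

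Alternatives were DESeq2 1.42.0, edgeR's likelihood-ratio test, other scaling and filtering, a replicate block, a model of all libraries, junction reads, a correction of each library for GC content and length by splines (5 and 3 degrees of freedom), and leaving out each library. The members and gene lists were chosen with earlier results of these data known. Genes named are the members, the 3 genes most correlated with each member, and the called gene with the largest rise or fall of a list over time; markers of tissue composition were named after their values were seen. Some genes that this rule names are not reported here.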

Additional observations from a re-analysis of the deposited data

How the results depend on the processing

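Of 40 called values of members, all 40 kept call and direction with DESeq2, the likelihood-ratio test and no filter, 39 with relative log expression scaling, 34 with the replicate block or library sizes alone, and 29 with a model of all 27 libraries. With the GC and length trend removed 29 were kept, 8 lost their call and 3 turned. Junction reads gave a value for 27 of them and kept 2. Replicate numbers did not pair the libraries (in 0 of 15 comparisons were all correlations over 0.1, range -0.493 to 0.401). The replicate block changed the number of called members from 3 to 0 for the early change of C57BL/6J, from 2 to 1 for its change from d12 to d17 and from 2 to 5 for AKR/J against C57BL/6J on d12. The causes of these shifts were not tested.

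Other counts of called members that moved by more than 1.5 times were as follows, and smaller shifts, of 1 or 2 members, are not listed. Junction reads, of which fewer enter (none for Bcl11b and Pou3f2, and no value for Tbr1 in 8 comparisons, so that these could not be called), kept calls only for Cav1-null from d12 to d17 (2 against 3) and otherwise gave 0, against 3, 1 and 5 (AKR/J early, late and d12 to d17), 3, 3 and 2 (C57BL/6J), 2 and 3 (Cav1-null early and late), 2 and 6 (AKR/J against C57BL/6J on d12 and d15) and 7 (Cav1-null on d15). The model of 27 libraries gave 5 for AKR/J early, 4 for AKR/J on d12, and 1, 0 and 1 for Cav1-null early, late and d12 to d17. DESeq2 gave 5 for both phases of C57BL/6J, and library sizes alone gave 3 for AKR/J from d12 to d17. GC correction gave 4 for C57BL/6J from d12 to d17, 0 for AKR/J on d12 and 3 on d15. Leaving out the replicate 3 libraries of d12 gave 3 for Cav1-null on d12 and 2 for its difference in early change. Counting transcripts separately gave 112 junctions in place of 44.

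The GC correction turned the sign of 29 of 152 member values, 12 of them of Cux1 and 9 of Cux2. Among them were Cux1 (AKR/J d12 to d17 -0.41, Cav1-null late -0.19, AKR/J on d12 0.0571 and on d15 0.0844, Cav1-null on d15 0.22), Cux2 (AKR/J on d12 0.17, Cav1-null on d12 0.19 and on d15 0.32) and Fezf2 (Cav1-null on d15 0.26). The sign of Fezf2 there also turned with library sizes alone (0.038). The early change of Cux1 in C57BL/6J was 0.0183 with DESeq2, 0.0184 with relative log expression scaling, 0.0109 without a filter, 0.0344 with 27 libraries, -0.45 with the GC correction (edgeR adjusted p = 0.0284) and -0.0508 to 0.0448 without 1 library, against -0.0136, and the late change of Cux1 in Cav1-null ran from -0.0011 to 0.0164 without 1 library.

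Leaving out each library gave 2 to 5, 1 to 2 and 2 to 6 called members in AKR/J (early, late, d12 to d17), 0 to 6, 0 to 7 and 1 to 2 in C57BL/6J, and 1 to 5, 3 to 4 and 2 to 6 in Cav1-null. It gave 0 to 4, 4 to 6 and 0 to 2 for AKR/J and 0 to 0, 6 to 8 and 0 to 1 for Cav1-null against C57BL/6J on d12, d15 and d17, and 0 to 3 and 0 to 5 for the differences in late change. The change of the upper minus deep balance ran from -2.24 to -0.49 and 0.15 to 0.56 (AKR/J early and late), -1.23 to -0.52 and 0.92 to 1.42 (C57BL/6J), and -0.71 to 0.15 and 0.64 to 0.69 (Cav1-null). With 3 libraries a group, a missing call does not show that levels were alike.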
